A study of Mus musculus with 11 samples.

Results

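LYVE1-expressing colonic macs (LYVE1 CMs) were the cells with 2 or more Lyve1 UMIs (unique molecular identifiers, each standing for 1 captured transcript) and 5 or more UMIs summed over C1qa, C1qb and C1qc in the WT and Zeb2KO colon libraries. There were 2391 such cells among 9379 colon barcodes, 1247 in the WT library and 1144 in the Zeb2KO library. The comparison cells, called Lyve1-zero CMs, met the same C1q rule with no Lyve1 UMI and numbered 2943 and 2589. After removal of cells more than 3 median absolute deviations from their library in UMIs, detected genes or mitochondrial share, 1168 WT and 1068 Zeb2KO LYVE1 CMs and 2686 WT and 2416 Zeb2KO Lyve1-zero CMs were analysed. Because Lyve1 and the C1q genes chose the cells, their levels are a description only.

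LYVE1 is a receptor for the matrix polysaccharide hyaluronan that is best known from lymphatic endothelium and is also carried by tissue-resident macs lying along blood vessels. Such macs usually carry scavenger receptors and little MHC class II, the complex that presents peptides to CD4+ T cells. In the colon most macs are replaced continually by blood monocytes that mature in the tissue and take up high MHC class II, whereas a smaller part is long-lived and sits near vessels and nerves in the deeper wall. C1q, the recognition subunit of the complement system, is made in bulk by most tissue macs and was used here to keep macs.

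The cells were live CD45+Ly6C-Ly6G-SiglecF-CD64+F4/80+ cells sorted from the colon and measured with 10x Genomics droplet sequencing, which counts transcripts at their 3′ ends. The WT library came from Zeb2fl/fl mice and the Zeb2KO library from Fcgr1-crexZeb2fl/fl littermates, in which the CRE recombinase is expressed from the locus of Fcgr1, the gene for CD64; both genotypes carry the loxP-flanked Zeb2 alleles and only the second carries CRE. ZEB2 is a transcription factor, and the study asked whether macs of several tissues need it to keep their identities. The paper reports that this CRE also acts in B cells, T cells and dendritic cells. It holds that some colonic macs of the CRE+ mice had presumably kept a Zeb2 allele. The mice were young adults, and it is not stated how many animals gave a colon library. With 1 library per genotype no difference below has a replicate check, no test was made, and all intervals are 95% intervals that cover counting error only.

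The members were sequenced about as deeply as the cells they were compared with. Median UMIs per cell were 9206 in WT LYVE1 CMs against 9175 in Lyve1-zero CMs, and 8616.5 against 8336.5 in Zeb2KO. The median share of mitochondrial UMIs was 2.98% against 2.37% in WT and 3.52% against 2.72% in Zeb2KO. The 2 colon libraries shared 28 cell barcodes, 2 of them among the members.

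The shares of LYVE1 CMs in both sorts lay close, with overlapping intervals at full depth and separate ones after thinning. In WT, 25.5% (exact binomial interval 24.3 to 26.8) of the 4578 cells that met the C1q rule had 2 or more Lyve1 UMIs, and in Zeb2KO 26.2% (24.9 to 27.6) of 4070 did. A share of this kind depends on depth, and with every cell thinned to 3000 UMIs (87 WT and 110 Zeb2KO shallower cells left out) it was 12.0% (11.1 to 13.03) in WT and 14.7% (13.6 to 15.8) in Zeb2KO. The median member held 4 Lyve1 UMIs in either library, with quartiles of 2 and 7 in WT and 3 and 8 in Zeb2KO and maxima of 94 and 47. A further 724 WT and 586 Zeb2KO cells held exactly 1 Lyve1 UMI and were in neither group.

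Nearly all cells that met the rule were from the colon, whose libraries were also the deepest, with median UMIs per cell of 8754 in WT and 8074.5 in Zeb2KO against 2108.5 to 5682 in the others. Over all 11 libraries of the series 2608 of 51712 barcodes met it. Among Kupffer cells, the macs of the liver, the share was 0.915% in WT, 2.76% in Zeb2KO and 0.956% in the Nr1h3fl/fl controls. Splenic macs gave 0% (0 of 3116 cells, which at 3 cells allows up to 0.0963%) in WT and 0.377% in Zeb2KO, and microglia 0.0353% in WT and 0% (0 of 3243, which allows up to 0.0925%) in Zeb2KO. Alveolar macs hold almost no C1q transcripts, so the C1q rule left 0 WT and 124 Zeb2KO cells, none of which had 2 Lyve1 UMIs. These shares are at full depth, and a lower share in a shallower library was not told apart from its depth.

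**Figure D1:**
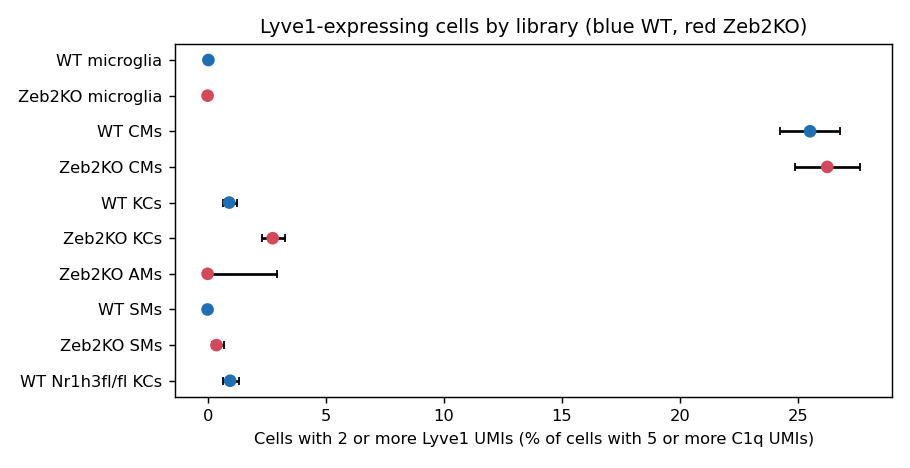
Percent of cells with 5 or more C1q UMIs that held 2 or more Lyve1 UMIs (horizontal axis) in each library with such cells; points are shares and bars exact binomial 95% intervals. The WT and Zeb2KO CMs stand at 25.5% and 26.2%, and the highest other library, Zeb2KO KCs, at 2.76%, at full depth in libraries of unlike depth.

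Cells of types that should lack Lyve1 were used as a background. In droplets, RNA released by broken cells adds UMIs to every barcode, and 4984 of 4989 WT and 4370 of 4390 Zeb2KO colon barcodes passed the C1q rule, so that rule alone kept other cell types in. Cells with 10 or more UMIs of fibroblast or smooth muscle markers and fewer than 50 C1q UMIs (157 in WT, 127 in Zeb2KO; called stromal marker cells) were read first. Of these, 0.637% in WT and 2.36% in Zeb2KO (1 and 3 cells) held 2 or more Lyve1 UMIs, at median depths of 8110 and 7162 UMIs. Marker cells that met the C1q rule were then read without that upper C1q limit. The shares were 14.1% of 227 WT and 10.3% of 165 Zeb2KO fibroblast marker cells, 31.5% of 73 and 24.6% of 61 plasma marker cells, and 0 of 15 and 4 of 22 B cell marker cells. Plasma marker cells had median C1q UMIs of 228 and 159, against 204 and 172.5 in the members, and whether they were doublets with macs was not tested. Levels below are in CPM, the UMIs of a gene relative to all UMIs of the group on the usual scale.

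The 4 other markers given for these cells all went with Lyve1 in both genotypes. CD163, the scavenger receptor for haemoglobin bound to haptoglobin (Cd163, chr6:124304656-124330527, plus strand, coordinates of GENCODE M21 on GRCm38/mm10 here and below), stood at 170.5 CPM (95% interval 163 to 178) in WT LYVE1 CMs and 37.5 (35.2 to 39.9) in Lyve1-zero CMs. In Zeb2KO it stood at 58.4 (53.7 to 63.3) and 14.5 (12.99 to 16.2). Lyve1 itself lies at chr7:110850607-110863239, minus strand.

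FOLR2, a folate receptor of resident macs (Folr2, chr7:101839988-101857194, minus strand), was at 1156 CPM (95% interval 1137 to 1176) against 259 (253 to 265) in WT and at 1153 (1132 to 1174) against 308 (301 to 316) in Zeb2KO. The endothelin receptor type B (Ednrb, chr14:103814625-103844402, minus strand) was at 230.3 CPM (95% interval 222 to 239) against 34.7 (32.5 to 37.1) in WT and 215 (206 to 224) against 36.6 (34.2 to 39.2) in Zeb2KO. Stromal marker cells held 129 CPM of Ednrb in WT and 98.6 in Zeb2KO, above the Lyve1-zero CMs. Carbonyl reductase 2 (Cbr2, chr11:120729489-120732114, minus strand) was at 761 CPM (95% interval 746 to 777) against 144 (139.7 to 149) in WT and 944 (925 to 963) against 186 (180.3 to 192) in Zeb2KO. As log2 ratios of (CPM + 1) over Lyve1-zero CMs, the pseudocount being 1 CPM, Ednrb stood at 2.69 and 2.52, Cbr2 at 2.39 and 2.34, Cd163 at 2.15 and 1.93 and Folr2 at 2.15 and 1.90, WT first. All intervals of the member and comparison levels were apart.

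The levels of the markers differed along the number of Lyve1 UMIs on either side of the limit. As means over cells they do not tell a gradient from a changing mix of cells. Just outside the limit, cells with 1 Lyve1 UMI had 501 CPM of Folr2 in WT and 528 in Zeb2KO, and just inside it, cells with 2 had 795 and 779.9. Ednrb went from 34.7 CPM at 0 Lyve1 UMIs through 76.5 at 1 and 123 at 2 to 398 at 10 or more in WT, and through 36.6, 67.5 and 124 to 331 in Zeb2KO. Cd74, the chaperone of MHC class II, went the other way, from 29482 to 5905 CPM in WT and from 20154 to 3721 CPM in Zeb2KO. Mrc1, the mannose receptor CD206, was nearly level from 2 Lyve1 UMIs upwards in WT (984 at 2 and 1082 CPM at 10 or more). Cells with 10 or more Lyve1 UMIs were also the deepest, with a median of 10321 UMIs against 8233 at 2 Lyve1 UMIs in WT and 10340 against 8094.5 in Zeb2KO.

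**Figure D2:**
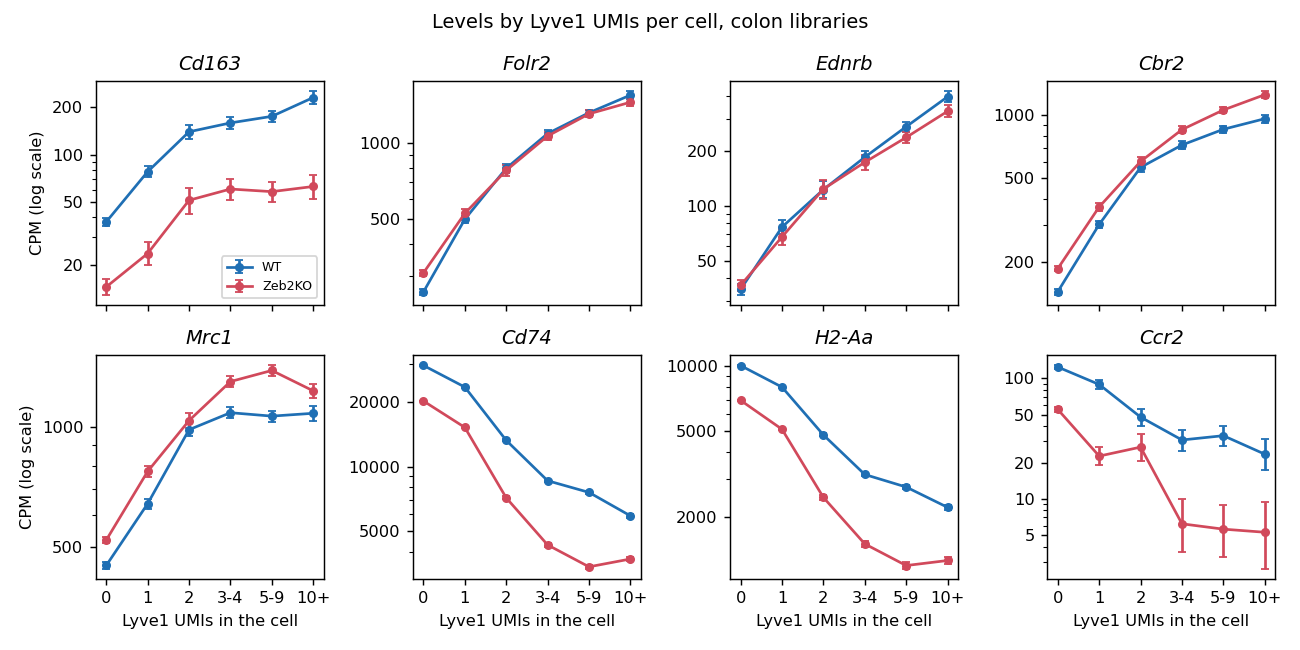
Level in CPM (vertical log axis) of 8 genes against the number of Lyve1 UMIs in the cell (horizontal axis, 6 bins) in the WT (blue) and Zeb2KO (red) colon libraries; bars are exact Poisson 95% intervals. Cd163, Folr2, Ednrb and Cbr2 are higher with each step from 0 to 2 Lyve1 UMIs, Cd74 and H2-Aa are lower, and Cd163 lies lower in Zeb2KO than in WT in every bin.

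The markers were seen together in more members than Lyve1-zero CMs at equal depth. With each cell thinned to 3000 UMIs, exactly 2 of Cd163, Folr2, Ednrb and Cbr2 were seen in 37.4% of WT and 45.3% of Zeb2KO members, against 18.4% and 20.8% of Lyve1-zero CMs. Exactly 3 or all 4 were seen in 34.1% and 14.6% of WT LYVE1 CMs, against 5.41% and 0.648% of Lyve1-zero CMs. In Zeb2KO the shares were 36.6% and 4.40% against 4.91% and 0.427%. None of the 4 was seen in 3.29% of WT and 3.06% of Zeb2KO members, against 39.0% and 37.6% of the Lyve1-zero CMs. The smaller share with all 4 in Zeb2KO went with Cd163, which was seen after thinning in 32.4% of WT and 10.6% of Zeb2KO members.

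A few members carried markers of other cell types. Of the endothelial genes read, Ccl21a (a chemokine that draws CCR7+ cells into lymph vessels) and Mmrn1 (multimerin 1) were higher in the members. Ccl21a was at 225 CPM against 11.4 in WT and 286 against 12.2 in Zeb2KO. The 10 cells with the most Ccl21a UMIs held 95.2% of the members' Ccl21a UMIs in WT and 75.1% in Zeb2KO. Only 10 WT and 15 Zeb2KO members had 10 or more UMIs over the 14 endothelial markers. Without cells with 10 or more UMIs of any other cell type's markers, Ccl21a was at 10.5 CPM in WT members and 11.4 in Lyve1-zero CMs. Ccl21a and Mmrn1 are themselves among these markers, so the exclusion fixes this fall in part. With a C1q limit of 50 UMIs instead, Ccl21a was still higher in WT, at a log2 ratio of 2.67. In Zeb2KO no endothelial gene was 2-fold higher in either setting. Of 3 endothelial genes read over all cells, 2 were higher in either library, with medians of 3.58 and 3.83. The remaining gene, Pdpn, went the other way but short of 2-fold, at log2 ratios of -0.97 in WT and -0.28 in Zeb2KO.

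Fibroblast genes went the other way and sat mostly in Lyve1-zero CMs. Fibroblast marker cells, with 10 or more UMIs over the fibroblast list without Gsn, which macs make too, numbered 227 in WT and 165 in Zeb2KO, of which 32 and 17 were members and 175 and 131 had no Lyve1 UMI. Counts of 2-fold genes are therefore given also without the cells that held 10 or more UMIs of another type's markers (Gsn and Cd209a not counted), a setting chosen after seeing the data that kept 1099 WT and 1017 Zeb2KO members and 2435 and 2211 Lyve1-zero CMs. Both members and comparison cells held the transcripts by which macs are usually known, with the CSF1 receptor Csf1r at 1136 against 832 CPM in WT and 995 against 688 in Zeb2KO, and Adgre1, the gene of F4/80, at 639 against 549 and 665 against 540.

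In WT, 321 of 5328 genes with at least 20 CPM in the higher group (6.02%) lay 2-fold or more apart between LYVE1 and Lyve1-zero CMs, 125 higher (2.35%) and 196 lower (3.68%) in the members. The median log2 ratio over these genes was 0.15. Without cells carrying other types' markers the genes numbered 285, 146 higher and 139 lower. The cells were chosen by a transcript of the same libraries, so these counts describe the members and are no test.

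Many genes known from resident and perivascular macs stood on the higher side. Beside the markers above, 21 of 26 such genes with enough counts were 2-fold higher in WT LYVE1 CMs and none was lower, with a median log2 ratio of 1.49. The count stayed 21 without cells carrying other types' markers. The list was drawn up with results of these data known, and it is read here only as a count.

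The 10 highest and 10 lowest ratios, here and below, are among genes at 50 CPM and in 10% of cells of the higher group (the naming rule). That rule also left out the genes that chose the cells and mitochondrial, ribosomal protein, sex-linked and immunoglobulin genes. The resident genes among the 10 highest were the following. Fcna, the gene of ficolin A, a plasma lectin that starts complement (chr2:25624666-25628030, minus strand), was at 553 CPM (95% interval 540.1 to 567) against 84.0 (80.5 to 87.6) in WT, a log2 ratio of 2.71. F13a1, the A chain of the clotting transglutaminase factor XIII (chr13:36867178-37050244, minus strand), was at 955 CPM (95% interval 938 to 973) against 195 (190 to 201), a ratio of 2.28. Timd4, the phosphatidylserine receptor TIM4 of long-lived resident macs (chr11:46810800-46844332, plus strand), was at 64.1 CPM (95% interval 59.6 to 68.8) against 13.5 (12.1 to 14.97), a ratio of 2.17. Even so, TIM4 transcripts were thin, seen after thinning in 15.1% of members and 3.77% of Lyve1-zero CMs, while F13a1 was seen in 87.3% and 36.2%.

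Cd209f, a C-type lectin of the DC-SIGN family, was at 509 against 113 CPM in WT. Retnla, the gene of the secreted RELMα found in alternatively activated macs, had a log2 ratio of 2.35, but the 10 highest cells held 51.4% of its UMIs in the members. Reads of Ccl21a, Retnla, C4b, Saa3, Ifitm1 and the Cd209, Bcl2a1, Ms4a4, Sirpb1 and Apol7 genes can be split among near-identical relatives, so their levels are uncertain as to which copy they came from. Among the further resident genes, Gas6, the bridging ligand of the TAM receptors, stood at 515 against 179 CPM, Pf4, a platelet and mac chemokine, at 7402 against 3368, and Mrc1 at 1053 against 449. Fgfr1, a fibroblast growth factor receptor, was at 44.4 against 10.1 CPM. WT stromal marker cells held more of it, at 102 CPM, and it stayed 2-fold higher without cells carrying other types' markers.

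Scavenger and complement genes were higher in part. The lists share genes, so their counts are not separate results. Cd163, Mrc1, Timd4, Vsig4, Ccl24, Pf4, Igf1, Gas6, Axl, Ccr2, Cd9, Fn1, Hes1 and Cxcl10, among others, each count in more than 1 list. Of 16 scavenger and endocytic receptors read in WT, 4 were 2-fold higher (Cd163, Mrc1, Timd4 and Cd36) and 1 lower (Axl), with a median of 0.27. Cd36, the receptor for oxidised lipoproteins, was at 472 CPM (95% interval 459.9 to 485) against 132 (128 to 137). Axl, a TAM receptor for dead cells, was at 73.6 CPM (95% interval 68.8 to 78.7) against 152 (148 to 157).

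Of 11 complement genes beside C1q, 3 were higher and none lower, with a median of 0.47. The complement component gene C4b was at 71.9 against 18.3 CPM and Vsig4, the mac receptor for C3b, at 34.9 against 5.97. Stromal marker cells held 124 CPM of C4b in WT and 117 in Zeb2KO. Iron handling gave 2 of 11 genes higher, Cd163 and the iron exporter Slc40a1 (134 against 63.2 CPM), with a median of 0.45. Of 19 genes of lipid handling, none was higher and 3 lower (Fabp4, Gpnmb and Cd9), with a median of -0.29, and Fabp4 was not lower without the cells carrying other types' markers.

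Secreted factors divided. Of 18 chemokines, 5 were higher in WT members (Ccl2, Ccl6, Ccl8, Ccl24 and Pf4) and 3 lower (Ccl5, Cxcl10 and Cxcl12), with a median of -0.03. Ccl8, a ligand of CCR2 and other receptors, was at 1192 CPM (95% interval 1173 to 1212) against 509 (500 to 517), and Ccl24, which draws eosinophils through CCR3, at 182 CPM (95% interval 174 to 189.8) against 40.5 (38.1 to 43.0). Cxcl10, an interferon-induced ligand of CXCR3, was at 55.0 against 119 CPM. Cxcl12, made mostly by stromal cells, was below the level read once cells with other types' markers were left out. Of the 17 chemokines then read, Ccl5, Cxcl10 and Cxcl16 were lower, and the median was 0.39.

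Of 20 growth and matrix factors, 6 were higher and 6 lower in WT, with a median of -0.03. The higher ones were the growth factors Igf1 (341 against 144 CPM), Pdgfc and Bmp2, the ligand Gas6, the co-receptor Nrp1 and the protease inhibitor Timp2 (560.3 against 242). The lower ones were the matrix proteases Mmp2, Mmp12, Mmp13 and Mmp14, the matrix protein Sparc and fibronectin (Fn1). Mmp13 was at 46.5 against 129 CPM and Mmp14 at 29.9 against 107. Sparc and Fn1 were no longer 2-fold lower in WT without the cells carrying other types' markers, and the median was then 0.08. Maf, a transcription factor that restrains inflammatory genes in macs, was the 1 of 24 macrophage transcription factors on the higher side, at 710 CPM (95% interval 695 to 725) against 343 (336 to 350.3), and Id3, Runx3, Bhlhe40 and Hes1 were lower (median -0.05). Id3 passed only with the cells carrying other types' markers, and with a C1q limit of 50 UMIs Maf was short of 2-fold in WT, at 0.98.

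MHC class II genes stood lower in the members. In WT, 8 of 10 genes of antigen presentation with enough counts were 2-fold lower in LYVE1 CMs and none higher, with a median log2 ratio of -1.52. Cd74 was at 9035 CPM (95% interval 8980.3 to 9089) in the members and 29482 (29416 to 29547) in Lyve1-zero CMs, H2-Aa (chr17:34282744-34287823, minus strand) at 3298 CPM (95% interval 3265 to 3331) and 10086 (10047 to 10124), and H2-Eb1 (chr17:34305867-34316674, plus strand) at 3160.2 CPM (95% interval 3128 to 3192) and 9939 (9901 to 9977). The peptide loading genes H2-DMa and H2-DMb1 and Ciita, the master regulator of the set, were lower too, Ciita at 11.7 against 34.5 CPM.

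Read cell by cell, most members were at the low end of a range with 2 peaks. Over 10 MHC class II genes, the median WT member gave 0.778% of its UMIs to them (quartiles 0.649% and 1.68%) and the median Lyve1-zero CM 6.49% (1.98% and 8.79%). Below 1% lay 64.9% of WT members and 17.9% of Lyve1-zero CMs, with 25.9% of the members and 8.34% of the Lyve1-zero CMs within 25% of that limit. The stromal marker cells, which should make none of these transcripts, had a median of 0.514% in WT and 0.263% in Zeb2KO. The medians of the members stood close above these.

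Within each MHC class II range the markers still went with Lyve1. Among WT cells below 1%, Folr2 was at 1409 CPM in the 758 members and 516 in the 482 Lyve1-zero CMs, and at or above 1% it was at 783 in 410 members and 212 in 2204 Lyve1-zero CMs. Ednrb was at 295 and 107 CPM below 1% and at 135 and 21.6 at or above it. Lyve1 in the members was at 691 CPM below 1% and 375 above it. The Lyve1-zero CMs of WT included 146 stromal marker cells, a type whose median MHC class II share was 0.514%. Stromal marker cells held 73.9 CPM of Folr2 and 129 of Ednrb in WT, and the split was not made without them. Ccr2 followed the MHC class II range more than Lyve1, at 9.72 and 11.3 CPM below 1% and 71.3 and 145 at or above it.

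**Figure D3:**
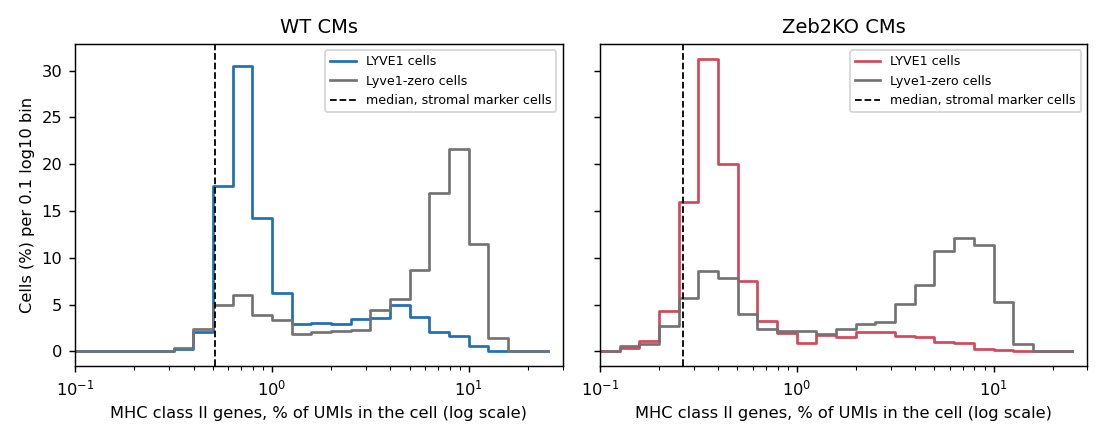
Percent of cells (vertical axis, per bin of 0.1 on the log10 scale) against the share of a cell's UMIs from 10 MHC class II genes (horizontal log axis) for LYVE1 (coloured) and Lyve1-zero (grey) CMs of WT, left, and Zeb2KO, right; the dashed line is the median of stromal marker cells of that library. Members crowd in the lower peak, with medians of 0.778% in WT and 0.378% in Zeb2KO, and Lyve1-zero CMs reach medians of 6.49% and 3.61%.

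Genes of recently arrived monocyte-derived cells were in part lower in WT members. Of 13 read, 7 were 2-fold lower (Ccr2, Plac8, Fn1, Itgax, Cd52, Gpr141 and Thbs1) and 2 higher (S100a4 and S100a10), with a median of -1.19. Ccr2, the receptor by which monocytes leave the marrow, was at 34.6 CPM (95% interval 31.3 to 38.2) against 124 (119.8 to 128), and Itgax, the integrin CD11c, at 37.4 CPM (95% interval 34.0 to 41.1) against 104 (99.8 to 108). S100a4, a calcium-binding protein of motile cells, was at 204 CPM (95% interval 196 to 213) against 85.6 (82.1 to 89.2). Without cells carrying other types' markers 5 stayed lower, with a median of -0.87, and Plac8 and Fn1 did not, and with a C1q limit of 50 UMIs the same 5 were lower, with a median of -0.46.

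Genes of mature CMs were lower in part, 6 of 21 (Hes1, Tgfbr1, Cd9, Acp5, Axl and Tmem119) with none higher and a median of -0.52. Acp5, the acid phosphatase TRAP, was at 237 against 607 CPM and Cd9, a tetraspanin, at 156 against 435. Cx3cr1, the fractalkine receptor, was at 429 against 609 CPM, less than 2-fold apart. Cd4, which marks part of the long-lived CMs, was at 101 CPM (95% interval 95.2 to 107) against 110.3 (106 to 114) in WT and 102 (96.3 to 109) against 119 (114 to 123) in Zeb2KO.

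Inflammatory genes had a median of -0.66 in WT, with 4 of 14 lower (Il1b, Ptgs2, Saa3 and Ccrl2) and none higher. Il1b, the gene of interleukin 1 beta, was at 312 CPM (95% interval 302 to 322) against 920.4 (909 to 932). Of 17 immediate early and heat shock genes, which respond to tissue digestion, none was 2-fold apart in either direction in WT or Zeb2KO, with medians of -0.18 and -0.08. None of 5 genes of dividing cells was 2-fold apart, with medians of 0.52 and 0.42. Of 9 interferon-stimulated genes in WT, Ifitm3 was higher and Cxcl10 lower, with a median of -0.29, and of 6 chemokine receptors Ccr2 alone was lower, with a median of -0.49.

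By the naming rule, the 10 lowest ratios in WT were mostly stromal genes. They were Aspn, Dcn, Fbln1, Spon2, Col1a1, Tagln, Acta2 and Clec3b, with Ccl5 and Apol7c beside them, and they ran from -2.34 for Aspn to -1.84 for Clec3b. The fibroblast list had 9 of 9 genes lower in both libraries, with medians of -1.69 and -1.82, and smooth muscle had 2 of 2, with medians of -1.87 and -2.05. Without cells with other types' markers, of 3 fibroblast genes and 1 smooth muscle gene left none was 2-fold apart in either library, which the exclusion by these same markers fixes in part. With a C1q limit of 50 UMIs, also chosen after seeing the data, the fibroblast list turned, with 2 of 7 genes higher in WT (Col1a1 and Lum), none lower and a median of 0.77, and with none of 4 genes 2-fold apart and a median of 0.47 in Zeb2KO. Ccl5, a chemokine of T cells and some macs, was then still lower, at -1.98, as was Apol7c. The 10 highest cells held 48.0% of the Ccl5 UMIs of WT members and 54.2% of those of Lyve1-zero CMs, and it was seen in 18.2% and 21.6% of cells.

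Lists of further cell types held few genes with enough counts. Of the epithelial list 2 of 2 in WT and 2 of 3 in Zeb2KO were lower (medians -1.89 and -1.40), and of the plasma cell list 2 of 3 and 1 of 3 were lower while Tnfrsf17 was higher in both (medians -2.04 and -0.60). Siglech, a gene best known from plasmacytoid dendritic cells, was higher at 28.8 against 9.05 CPM in WT and 22.4 against 5.34 in Zeb2KO. Il7r of the T and NK list was lower in WT. Of the B cell and neutrophil lists at most 1 gene each could be read and none was 2-fold apart, and of the mast cell and glial lists none could be read.

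The same comparison in Zeb2KO gave a largely shared set of genes. There, 396 of 5477 genes (7.23%) lay 2-fold apart between LYVE1 and Lyve1-zero CMs, 146 higher (2.67%) and 250 lower (4.56%), with a median over all genes read of 0.14. Without cells carrying other types' markers there were 353, 160 higher and 193 lower. Of the genes higher in WT members, 99 were also higher in Zeb2KO, which is 79.2% of the WT and 67.8% of the Zeb2KO genes, and of the lower ones 162, or 82.7% and 64.8%, were shared. These 2 comparisons have no cell in common.

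**Figure D4:**
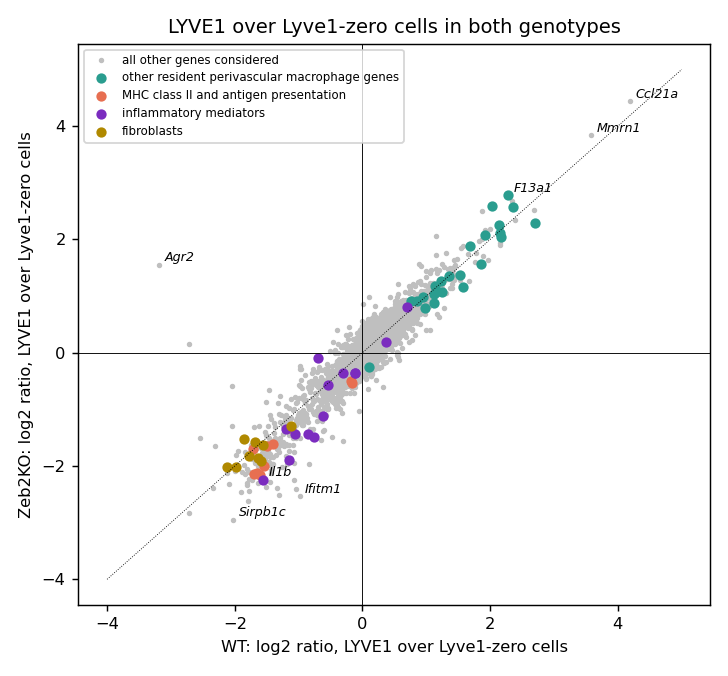
Log2 ratio of LYVE1 over Lyve1-zero CMs in Zeb2KO (vertical axis) against that in WT (horizontal axis); each point is a gene with at least 20 CPM in the higher group of both comparisons, 4 lists are coloured, and the dotted line marks equal ratios. Genes of resident macs lie at the upper right, MHC class II and fibroblast genes at the lower left, and Agr2 at -3.19 in WT and 1.55 in Zeb2KO.

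The resident list counted 18 of 24 higher in Zeb2KO, with a median of 1.31. F13a1 was at 1134 CPM (95% interval 1114 to 1156) in the Zeb2KO members and 164 (159 to 169.6) in Lyve1-zero CMs, Fcna at 1074 (1053 to 1094) and 219 (213 to 225), and Timd4 at 45.7 (41.6 to 50.1) and 10.3 (9.02 to 11.7). The 10 highest ratios, from 4.44 for Ccl21a to 2.16 for C4b, held F13a1, Retnla, Fgfr1, Vsig4, Ednrb, Cbr2, Fcna and Ccl24 between them. Fgfr1 was at 66.0 CPM (95% interval 61.1 to 71.2) against 10.1 (8.81 to 11.5), a log2 ratio of 2.60 against 2.03 in WT. Zeb2KO stromal marker cells held more of it, at 106 CPM, and it stayed 2-fold higher without cells carrying other types' markers.

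A pair of lectins higher in WT members was below the level read in Zeb2KO. Cd209b was at 36.6 CPM (95% interval 33.2 to 40.2) in WT members and 0.298 (0.0615 to 0.872) in Zeb2KO members, and Cd209d at 21.9 (19.3 to 24.7) and 0.398 (0.108 to 1.02). Their relative Cd209g was at 185 (178 to 193) and 129.5 (123 to 137). These C-type lectins bind glycans of microbes, and reads among them can be shared.

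Other lists were counted in Zeb2KO in the same way. Scavenger receptors had 4 of 17 higher and 1 lower, the same genes as in WT, and complement 3 of 11 higher, C4b and Vsig4 again among them, with medians of 0.21 and 0.55. Growth and matrix factors had 6 of 20 higher and 6 lower, the same genes as in WT, with a median of -0.05. Without cells carrying other types' markers 6 of 18 were higher and 4 lower (Mmp12, Mmp13, Mmp14 and Fn1), with a median of 0.12. Of 17 chemokines, 5 were higher (Ccl6, Ccl8, Ccl9, Ccl24 and Pf4) and 6 lower (Ccl4, Ccl5, Cxcl9, Cxcl10, Cxcl12 and Cxcl16), with a median of -0.29, and without those cells 5 of 16 were lower, with Cxcl12 below the level read and a median of -0.02.

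Of 13 monocyte-derived genes 2 were higher and 7 lower, with a median of -1.10, and with a C1q limit of 50 UMIs 3 of 12 were higher (S100a6 beside S100a4 and S100a10) and 6 lower, with a median of -0.64. Ccr2 stood at 10.3 CPM (95% interval 8.45 to 12.5) in the members against 55.1 (52.1 to 58.3). Of 19 mature CM genes 4 were lower (Cd9, Acp5, Axl and Tmem119; median -0.36), of 27 transcription factors Maf was higher and 5 were lower (median -0.001), and of 11 iron genes Cd163 alone was higher (median 0.55). Of 18 lipid genes the cholesterol exporter Abca1 and the transfer protein Pltp were higher and 4 lower (median -0.23). Of 11 interferon-stimulated genes 2 were lower (median -0.35), and of 6 chemokine receptors Ccr2 was lower (median -0.55).

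MHC class II was low in the Zeb2KO members as well. Of 12 genes read 10 were lower, with a median of -1.67, and Cd74 was at 4547 CPM (95% interval 4505 to 4589) against 20154 (20095 to 20213). The median Zeb2KO member gave 0.378% of its UMIs to the 10 MHC class II genes and the median Lyve1-zero CM 3.61%, and 86.1% and 35.1% of them lay below 1%. Among cells below 1%, Folr2 was at 1283 CPM in 920 members and 515 in 847 Lyve1-zero CMs, and at or above it at 585 and 204 in 148 and 1569. The Zeb2KO Lyve1-zero CMs included 118 stromal marker cells, a type with a median share of 0.263% and Folr2 at 82.5 CPM. This split was not made without them either.

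Inflammatory genes stood further apart in Zeb2KO. Of 16 read, 9 were lower in the members (Il1b, Il1a, Il1rn, Ptgs2, Nlrp3, Saa3, Lcn2, Clec4e and Ccrl2), with a median of -1.23. Il1b was at 383 CPM (95% interval 371 to 396) in the Zeb2KO members, against 312 CPM in WT members, and at 1815 (1797 to 1832) in Zeb2KO Lyve1-zero CMs. Il1r2, the decoy receptor for interleukin 1, was at 20.3 (17.6 to 23.3) in the members and 111 (107 to 115) in Lyve1-zero CMs, against 9.27 (7.61 to 11.2) and 24.9 (23.0 to 26.9) in WT. The difference between the genotypes was not tested.

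The ratios of both genotypes were set side by side for 2716 genes that reached 20 CPM in the higher group of both comparisons, 50 CPM in some group and 10% of the cells of some group, with the genes outside the naming rule left out. Of these, 5 had ratios over Lyve1-zero CMs that differed by 1 or more on the log2 scale between WT and Zeb2KO. They were Ifitm1, Traf1, Ms4a4c, Stap1 and Il1r2, and in all 5 the Zeb2KO ratio was the lower. Agr2, seen in under 10% of cells of each group, and Jchain, the gene of the joining chain of immunoglobulins, were outside these genes and differed the other way, Agr2 from -3.19 in WT to 1.55 in Zeb2KO and Jchain from -2.04 to -0.60. Ifitm1, an interferon-induced membrane protein (chr7:140967221-140969825, plus strand), was at 59.6 CPM (95% interval 55.3 to 64.2) and 119 (115 to 123) in WT LYVE1 and Lyve1-zero CMs and at 125 (119 to 132) and 729.9 (719 to 741) in Zeb2KO. Stromal marker cells held 1061 CPM of it in WT and 1433 in Zeb2KO, and their part in the difference was not tested. Traf1, a signalling adaptor of TNF receptors, was at 13.5 and 28.9 CPM in WT and 13.7 and 77.3 in Zeb2KO.

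The lowest 10 ratios in Zeb2KO were Sirpb1c, Ifitm1, Ms4a4c, Apol7c, Bcl2a1d, Traf1, Il1r2, H2-Oa, Bcl2a1a and Mmp14, from -2.95 for Sirpb1c to -2.34 for Mmp14. Mmp14, the membrane-bound matrix protease MT1-MMP, was at 22.4 CPM (95% interval 19.5 to 25.5) against 117 (113 to 122). H2-Oa, a subunit of the inhibitor of peptide loading usually made by B cells, was at 10.3 (8.45 to 12.5) against 58.2 (55.1 to 61.5) in Zeb2KO and at 2.72 (1.86 to 3.84) against 10.99 (9.76 to 12.3) in WT. Bcl2a1a and Bcl2a1d, copies of the survival gene A1, had log2 ratios of -2.37 and -2.44 in Zeb2KO and -1.51 and -1.78 in WT.

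Zeb2KO members lay 2-fold or more from WT members in 56 of 5387 genes (1.04%), 28 higher and 28 lower (0.52% each), with a median over all genes of 0.03. In Lyve1-zero CMs 99 of 5115 genes did (1.94%), 75 higher (1.47%) and 24 lower (0.469%), with a median of 0.05. Without cells at 10 or more UMIs of other types' markers the counts were 51 and 107. Without cells at 2 or more, which kept 211 WT and 249 Zeb2KO members, they were 150 and 99, so that the members no longer had the smaller count. That limit also counted Gsn, which macs make too, and kept only 733 WT and 834 Zeb2KO cells, with 417 and 470 Lyve1-zero CMs. The part of the small cell numbers in these counts was not tested. Each genotype is 1 library, so genotype, animals, sort and library cannot be told apart in these values.

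Saa3, the acute phase serum amyloid A of macs and stroma (chr7:46711998-46715700, minus strand), had the highest ratio by the naming rule. It was at 21.02 CPM (95% interval 18.5 to 23.8) in WT and 403 (391 to 416) in Zeb2KO members, a log2 ratio of 4.20. The 10 highest cells held 44.0% of its UMIs in the Zeb2KO members, Lyve1-zero CMs were at 44.9 (42.3 to 47.5) and 1099 (1085 to 1113), and Zeb2KO stromal marker cells held 84.7 CPM against 4.52 in WT. The part of free RNA in this difference was not tested.

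Vsig4 (chrX:96247203-96293438, minus strand) was at 34.9 CPM (95% interval 31.6 to 38.4) in WT and 232 (223 to 242) in Zeb2KO members, a ratio of 2.70. After thinning it was seen in 6.58% of WT and 32.7% of Zeb2KO members and in 1.41% and 8.29% of Lyve1-zero CMs, and stromal marker cells held 3.77 and 11.8 CPM. VSIG4 is a receptor best known from Kupffer cells. Fcna was at 553 (540.1 to 567) in WT and 1074 (1053 to 1094) in Zeb2KO members, a ratio of 0.95, which is short of 2-fold. In Lyve1-zero CMs its ratio was 1.37.

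The other high ratios were smaller. Lsp1, an actin-binding protein of leukocytes, was at 53.9 (49.7 to 58.2) and 155 (148 to 163) CPM, Ly6e, an interferon-induced surface protein, at 551 (537 to 564) and 1224 (1202 to 1246), and the chemokine Ccl12 at 308 (298 to 318) and 643 (628 to 659), WT first. S100a6, a calcium-binding protein, was at 589 (575 to 603) and 1282 (1260.4 to 1305) in members and at 550 (541 to 559) and 646 (635 to 657) in Lyve1-zero CMs, so that its ratio over WT was 1.12 in the first and 0.23 in the second. Stromal marker cells held 5141 and 5083 CPM of S100a6. Cystm1 and Ifitm1 had ratios of 1.12 and 1.06, and Rtn1, at 0.96, fell short of 2-fold. In Lyve1-zero CMs the ratios over WT were 1.28 for Lsp1, 1.06 for Ly6e and 1.24 for Ccl12. They were 1.46 for Cystm1, 2.60 for Ifitm1 and 0.60 for Rtn1.

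Cd163 was lower in Zeb2KO members, at a log2 ratio of -1.53, while its fellow markers Folr2 (-0.003), Ednrb (-0.10) and Cbr2 (0.31) were not 2-fold apart. It was lower in the Lyve1-zero CMs as well (-1.31), and in Zeb2KO as in WT the members stood above them. Among cells below 1% MHC class II, members held 205 CPM in WT and 63.9 in Zeb2KO. Stromal marker cells held 7.54 and 4.29 CPM.

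Mgst1, a glutathione transferase of membranes, was at 80.3 (75.3 to 85.6) in WT and 28.2 (25.05 to 31.7) in Zeb2KO members, a ratio of -1.48. Acp5 was at -1.16, Axl at -1.10, Emb, a chaperone of lactate transporters, at -1.10, Cyp4f18, an enzyme that breaks down leukotrienes, at -0.99 and so just short of 2-fold, and Apol7c, of the apolipoprotein L family, at -1.92. In Lyve1-zero CMs these ratios were -0.92 for Mgst1, -0.70 for Acp5, -0.86 for Axl, -0.65 for Emb, -0.81 for Cyp4f18 and -1.365 for Apol7c. The macs' matrix protease Mmp9, a gene outside the naming rule, was at 39.9 (36.4 to 43.7) in WT and 1.49 (0.835 to 2.46) in Zeb2KO members. Its ratio over WT in Lyve1-zero CMs was -1.51.

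H2-Eb1, H2-Aa and H2-Ab1 were the MHC class II genes among the 10 lowest by the naming rule, with ratios of -1.09, -1.08 and -1.02. Of 8 MHC class II genes read 3 were lower, with a median of -0.92. Stromal marker cells were lower too, with H2-Aa at 936 CPM in WT and 666 in Zeb2KO and H2-Eb1 at 853 and 667. In WT members 35.1% of cells lay at or above 1% MHC class II and in Zeb2KO members 13.9%, with 25.9% and 3.28% within 25% of that limit, which lies nearer to the lower peak of WT. The part of free RNA and of this share in the ratios was not tested. In Lyve1-zero CMs the H2-Aa ratio was -0.54.

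**Figure D5:**
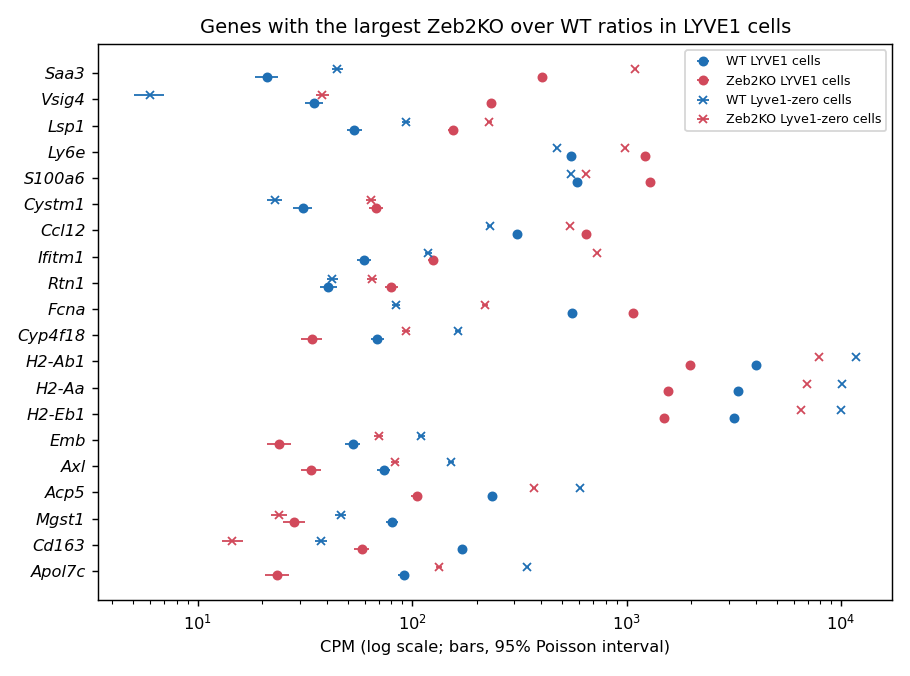
Level in CPM (horizontal log axis) in LYVE1 (circles) and Lyve1-zero (crosses) CMs of WT (blue) and Zeb2KO (red), with exact Poisson 95% intervals as bars. Genes are the 10 highest and 10 lowest by Zeb2KO over WT ratio in LYVE1 CMs, under the naming rule (50 CPM, 10% of cells). Saa3 runs from 21.02 to 403 CPM in the LYVE1 CMs and from 44.9 to 1099 in the Lyve1-zero CMs, and Cd163 is lower in Zeb2KO in both.

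Of 26 resident genes 1 was higher in Zeb2KO (Vsig4) and 2 lower (Cd209b and Cd209d), with a median of -0.03. Of 14 inflammatory genes 2 were higher (Saa3 and Clec4e; median 0.37), where in Lyve1-zero CMs 7 of 16 were higher (median 0.82). Of 25 transcription factors none was 2-fold apart (median 0.14), and of 17 chemokines Ccl12 was higher and Ccl5 and Cxcl13 lower (median 0.10).

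Of 12 monocyte-derived genes S100a6, Lsp1 and Clec4e were higher and Ccr2 lower in Zeb2KO members (median 0.19), and of 20 mature CM genes C3 was higher and Acp5, Axl, Dtx4 and Tmem119 lower (median -0.17). C3, the central complement component, was at 15.7 (13.5 to 18.1) in WT and 42.9 (39.0 to 47.2) in Zeb2KO members. Its ratio over WT in Lyve1-zero CMs was 1.49. Growth and matrix factors had 1 of 19 lower (Mmp9), scavenger receptors 2 of 16 lower (Cd163 and Axl) and lipid genes 1 of 17 higher (Spp1, osteopontin). Cd79b, a B cell receptor subunit and the 1 B cell gene read, was at 33.5 (30.3 to 37.0) in WT and 2.88 (1.93 to 4.14) in Zeb2KO members.

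Ms4a1 and Siglecf, which the study used with Cd101, Epcam and Zeb2 itself to tell macs without ZEB2, were seen in few LYVE1 CMs. Of these 5 genes 1 (Zeb2) could be read in WT and was not 2-fold apart, and of 3 read in Zeb2KO 2 were lower in the members, Ms4a1 and Epcam (median -1.40). Epcam, an epithelial gene, could no longer be read without cells carrying other types' markers, of which it is itself one. Ms4a1, the gene of CD20, was seen in 4.21% of Zeb2KO members and 14.9% of Zeb2KO Lyve1-zero CMs, and after thinning in 2.29% and 9.06%. In WT it was seen in 0.171% and 0.447%. Siglecf was seen in 0.655% of Zeb2KO members and 3.31% of Zeb2KO Lyve1-zero CMs, against 0.257% and 0.782% in WT, all in cells sorted as SiglecF-.

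The paper took colonic macs with higher Zeb2, Ms4a1 and Siglecf as lacking ZEB2, and reported that all of them had high Cd74. Ms4a1 went with MHC class II in Zeb2KO. Below 1% it was at 2.08 CPM in members and 8.83 in Lyve1-zero CMs, and at or above 1% at 42.2 and 63.2. The 10 highest cells held 57.3% of the Ms4a1 UMIs of Zeb2KO members and 15.9% of those of Lyve1-zero CMs. The 22 B cell marker cells of that library, 4 of them members and 16 without a Lyve1 UMI, were not left out of this split. Stromal marker cells of that library held 8.57 CPM of Ms4a1 (interval 3.7 to 16.9), seen in 2.36% of these 127 cells. Zeb2 transcripts counted at the 3′ end do not report the deletion, and they stood at 411 (399.5 to 423) CPM in WT and 479 (466 to 493) in Zeb2KO members and at 353 (346 to 361) and 473 (464 to 482) in Lyve1-zero CMs. How many LYVE1 CMs of the Zeb2KO library had lost ZEB2 can therefore not be read from the Zeb2 counts and was not estimated here.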

How the data were processed

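Raw UMI counts per gene and barcode were used as deposited; the authors made them from 10x Genomics libraries with Cell Ranger and STAR on mm10. Cells beyond 3 median absolute deviations of their library in UMIs, genes or mitochondrial share were removed. The methods use the same 3 measures and limit over the aggregated samples of both genotypes and remove further cells, which was not done here. Counts of 27998 genes were summed over the cells of each group and divided by the group's total (CPM). A gene was read where the higher group reached 20 CPM, and 2-fold means a difference of 1 in log2(CPM + 1). Intervals are exact Poisson (levels) and Clopper-Pearson (shares), at 95%.

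Named genes were the 10 highest and 10 lowest ratios per comparison among genes at 50 CPM and in 10% of cells of the higher group, together with members of 29 gene lists. Members, lists and rules were chosen with earlier results of these data known. The 2-fold rule was tested on simulated counts drawn per gene and group, without variation between cells. Doublets were not called; cells with markers of other cell types were instead left out as an alternative. Some values are not reported here. Gene positions are from GENCODE M21. Python 3.11.15, numpy 2.4.6, scipy 1.17.1, pandas 2.3.3 and matplotlib 3.10.9 were used, and R 4.3.3 with edgeR 4.0.16 for TMM factors only.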

Additional observations from a re-analysis of the deposited data

Results flagged for a closer look

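Zeb2KO KCs held more cells with 2 or more Lyve1 UMIs than WT KCs, 2.76% against 0.915% of cells that met the C1q rule. Zeb2KO SMs held 0.377% and WT SMs none. In Zeb2KO AMs, 60 cells had 2 or more Lyve1 UMIs with fewer than 5 C1q UMIs, against 2 in WT AMs, and the Lyve1 level over all their cells was 16.1 CPM against 0.473 CPM. These libraries stand outside the colon comparison, each is 1 library per genotype, and the differences were not tested.

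Agr2, a gene of secretory epithelium, was the 1 gene 2-fold lower in LYVE1 CMs of one genotype and 2-fold higher in the other. In WT it was at 7.66 CPM in LYVE1 and 77.8 CPM in Lyve1-zero CMs, a log2 ratio of -3.19, and in Zeb2KO at 69.1 and 23.0 CPM, a log2 ratio of 1.55. It was seen in 7.45% and 8.27% of WT cells (87 and 222) and in 4.59% and 4.43% of Zeb2KO cells (49 and 107). The 10 cells with the most Agr2 UMIs held 14.4% of the UMIs in LYVE1 and 88.4% in Lyve1-zero CMs of WT, and 94.4% and 80.3% in Zeb2KO, and the highest Zeb2KO LYVE1 CM alone held 646 of 695. The difference was not tested.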

How the results depend on the processing

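Each genotype was 1 library, so depth, animals and sort limit every value. No paired analysis was possible because each genotype had 1 colon library and the labels number no replicates. Counts of 2-fold genes are given in the order WT members over Lyve1-zero CMs, the same in Zeb2KO, Zeb2KO over WT in members, and in Lyve1-zero CMs. They were 605, 693, 159 and 198 with a floor of 5 CPM, 181, 222, 20 and 46 with one of 50 CPM, and 847, 932, 258 and 267 with none. With 1 Lyve1 UMI as the limit the first 2 were 156 and 231, the MHC class II medians -0.97 and -1.19 and the shares of members 41.3% and 40.6%. With 3 as the limit the WT median was -1.66 and the shares 18.6% and 20.4%. Leaving out cells with 2 or more UMIs of other types' markers, which kept 211 WT and 249 Zeb2KO members, gave 150 genes for Zeb2KO over WT in members, MHC class II medians of -1.92 and -2.24 and shares of 28.8% and 29.9%. The WT MHC class II median was -1.63 with TMM factors, -1.72 with the mean of per-cell levels and -1.67 without cells at 10 or more UMIs of other types' markers. The Zeb2KO median was -2.06 with the 50 CPM floor and -1.53 with a pseudocount of 5 CPM. The shares were 27.6% and 29.6% with a C1q limit of 50 UMIs and 12.0% and 14.7% in thinned cells. The limits of 50 C1q and of 10 other-type UMIs were chosen after seeing the data. TMM moved all ratios over Lyve1-zero CMs by 0.11 (WT) and 0.109 (Zeb2KO) on the log2 scale. Ratios of Cd163, Folr2, Ednrb and Cbr2 over Lyve1-zero CMs stayed 2-fold or more in all 88 alternatives, from 1.27 to 2.92. The causes of these shifts were not tested.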

Other observations

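Without cells that carried other types' markers, 146 genes were 2-fold higher and 139 lower in WT members, and 160 and 193 in Zeb2KO members. Cd55, the decay-accelerating inhibitor of complement, then stood with C4b and Vsig4 on the higher side in both libraries, and Nr1h3, the gene of the oxysterol receptor LXRα, was 2-fold lower in both, at log2 ratios of -1.004 and -1.07. Over all cells it was at -0.84 and -0.998, 2-fold lower in neither, and with a C1q limit of 50 UMIs at -0.91 and -1.05. The exclusion and this limit were chosen after seeing the data.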
